A study of Mus musculus with 2 samples.

Results

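Levels of 40 DNA replication genes were compared in bone marrow cells sorted as haematopoietic stem cells (HSCs) from mice with and without an endothelial deletion of Angptl2. The genes cover origin recognition, origin licensing, the replicative helicase, the polymerases with their clamp, single-strand binding and fork protection, nucleotide supply and the transcription factor E2f1. They were given as a list of symbols and are 40 of the 54531 genes in the table. No rule on their values made the list, but it was chosen with earlier results of these data known. All 40 were found once each, and all 40 averaged 1 FPKM or more over the libraries (fragments per kilobase of exon and per 1000000 fragments).

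The Cdh5-Cre;Angptl2fl/fl mice carried floxed alleles of Angptl2, which encodes a secreted angiopoietin-like protein, together with a Cre recombinase under the promoter of the endothelial cadherin gene Cdh5. The Angptl2fl/fl mice served as the control. Their sorted cells are called deletion cells and control cells here. Each genotype is 1 library, so the libraries have no replicates, no difference has a replicate check, and no p-value is given. "Higher" and "lower" describe these libraries only. The control's title and genotype name the floxed alleles, but its description and column name hold "Cdh5" and "Cre" and no floxed allele, so the labels leave its genotype unsettled. Whether Cre driven by Cdh5 also acted in blood cells or their precursors is not said. The sort markers, the age of the mice and how many were pooled could not be taken from the labels. The comparison asks how RNA levels in sorted HSCs differ when the marrow's endothelium lacks Angptl2.

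DNA replication starts at origins bound by the origin recognition complex (ORC). There Cdc6 and Cdt1 load rings of MCM2-7, the motor of the replicative helicase, and geminin (Gmnn) blocks Cdt1 from loading them again in the same cycle. In S phase Cdc45 and the GINS complex join MCM2-7 to form the active CMG helicase. DNA polymerases then copy the strands, held on by the ring-shaped clamp PCNA, which the replication factor C complex loads. Many of these genes are transcribed by E2F factors late in G1. HSCs in adult marrow are mostly out of the cell cycle, while progenitors of the blood lineages divide often.

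FPKM times exon length fell within 0.02 of a whole multiple of a single step for 96.1% of the genes above 0 in deletion cells and 96.5% in control cells, which put their depths at 16843115 and 17378619 fragments. In deletion cells 18210 genes with a known exon length were above 0, and in control cells 21882. The most frequent fragment number of a gene was 6 in deletion cells (453 genes) and 1 in control cells (1389 genes). Mitochondrially encoded genes made up 13.7% of the summed FPKM in deletion cells and 8.91% in control cells. Angptl2 was at 0.18 FPKM (19 fragments) in deletion cells and 0.27 FPKM (29 fragments) in control cells, so its level in these cells is too low to check the labels. All 9 HSC markers were detected, and their sum was 129.7 FPKM in deletion cells and 143.8 FPKM in control cells, with 8 of 9 lower in deletion cells. Slamf1, a surface marker of HSCs, was at 0.55 and 0.40 FPKM, and Mecom, a transcription factor of HSCs, at 1.36 and 1.67 FPKM. The erythroid gene Car1 was at 1629 and 1315 FPKM, and the neutrophil protease gene Elane at 1084 and 423 FPKM in deletion and control cells. Genes of committed progenitors were thus far above the defining HSC markers, which goes against a pure HSC label, and HSC is used below only as the name of the sort.

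The promoters of the replication genes held letters of E2F sites more often than those of other genes. In the RefSeq promoter table, on GRCm38.p6, 31 of the 40 genes had a promoter, taken from 250 bases before the transcription start to 50 after it. The letters searched on both strands were TTTCCCGC, TTTGGCGC, TTTCGCGC and TTTGCCGC, which are forms of the E2F site. They occurred in 12 of the 31 promoters (38.7%), against 419 of 8160 promoters of protein-coding genes averaging 1 FPKM or more (5.13%). Among all 27025 promoters in the table, 704 held a match (2.6%). In promoters between the GC quartiles of the 31 (53.5% and 66.0%), the share was 5.33%. The genes with a match were Orc1, Orc3, Cdc6, Cdt1, Mcm3, Mcm5, Mcm6, Mcm7, Gins3, Rfc3, Pola1 and Pold1. They held 18 matches, of which 12 lay before the start and 6 after it. Of the 5 MCM2-7 genes with a promoter in the table, 4 had a match. The following 60-base stretches show matches in genes of origin recognition, loading, the helicase and the primer polymerase, each read 5′ to 3′ on the gene's strand. Capitals mark the E2F letters.

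Orc1, chr4:108579401-108579460 (plus strand): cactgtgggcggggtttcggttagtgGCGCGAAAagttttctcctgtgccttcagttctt

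Cdc6, chr11:98907987-98908046 (plus strand): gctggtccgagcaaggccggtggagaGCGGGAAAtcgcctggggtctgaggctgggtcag

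Mcm5, chr8:75109332-75109391 (plus strand): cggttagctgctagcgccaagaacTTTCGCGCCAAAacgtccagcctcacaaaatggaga

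Mcm6, chr1:128359782-128359841 (minus strand): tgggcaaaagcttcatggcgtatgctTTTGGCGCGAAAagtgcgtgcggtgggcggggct

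Pola1, chrX:93632260-93632319 (minus strand): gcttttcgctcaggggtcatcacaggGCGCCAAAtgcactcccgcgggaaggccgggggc

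The capitals in Orc1, Cdc6 and Pola1 read as the reverse complement of a searched form. In Mcm5 and Mcm6 the longer run of capitals holds a match on each strand, and the matches share 4 letters. By GENCODE M21 the Mcm5, Mcm6 and Pola1 stretches lie outside annotated genes, and that of Cdc6 lies in an intron of a longer Cdc6 model. The Orc1 stretch reaches 7 bases into the first exon of a coding transcript and 38 into that of a noncoding one. These matches describe letters in the promoter and show no binding.

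CCAAT, the box bound by NF-Y and common in promoters of cycling genes, was also frequent. It occurred on either strand in 21 of the 31 promoters (67.7%), against 43.5% of the promoters of expressed protein-coding genes. Both kinds of letters stood together in 8 of the 31 (25.8%), against 2.61%. The median GC of the promoters was 61.3% in the replication genes and 61.0% in the expressed protein-coding genes.

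**Figure D1:**
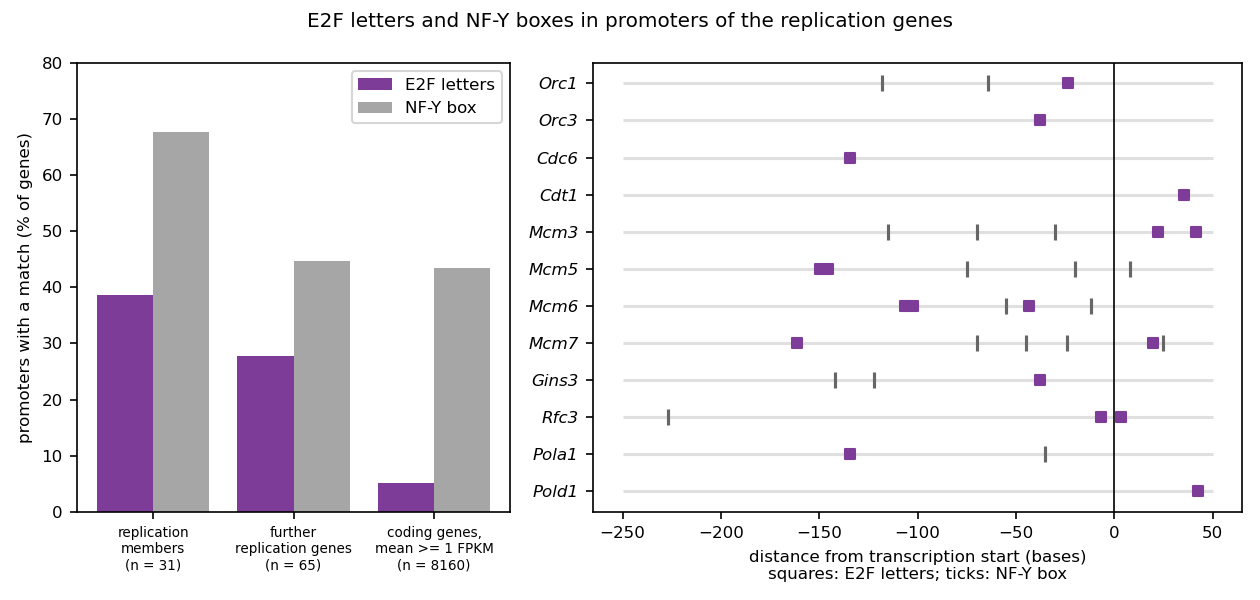
Promoter letters of the replication genes. Left: share of promoters (%) with E2F letters (purple) or the NF-Y box CCAAT (grey) in 31 replication genes, 65 further replication genes and 8160 expressed protein-coding genes; the E2F share is 38.7% in the replication genes and 5.13% in the coding genes. Right: distance from the transcription start (bases) of each E2F match (squares) and NF-Y box (ticks) in the 12 genes with E2F letters, from Mcm7 at -161.5 to Pold1 at 42.5.

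All 40 replication genes were read in both libraries at levels between 4.45 and 168.4 FPKM in deletion cells and between 3.73 and 146.9 FPKM in control cells. Each rested on 303 to 9385 fragments in deletion cells and 265 to 10028 in control cells, among the 39 with whole fragment numbers. Their summed level was 1768 FPKM in deletion cells and 1678 FPKM in control cells, and as a share of all FPKM it was 0.421% and 0.443% in the same order. The sum was thus higher and the share lower in deletion cells. In bulk RNA, fewer cells of a type and less RNA per cell cannot be told apart.

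Levels differed far more between replication genes than between libraries. In deletion cells 38 of the 40 were above the median of genes averaging 1 FPKM or more, and 15 were in the top 10% of these; in control cells the numbers were 37 and 13. The 5 highest had the same order in both libraries, which was Pcna, Mcm5, Mcm7, Mcm6 and Mcm3. The lowest in both was Orc4. Across the 40 genes the Spearman correlation of FPKM between libraries was 0.99, and no gene moved by more than 5 places in the order.

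The deposited FPKM divides by the length of all exons of a gene, so levels were also set against the longest coding transcript. On that scale, added after the data were seen, Pola2 moved to the place after Pcna, at 211.1 in deletion cells and 196.2 in control cells. Orders between genes therefore depend on the length used, while that length cancels in the plain FPKM ratio of the libraries for each gene. Which fragments are counted for a gene still depends on the gene model.

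**Figure D2:**
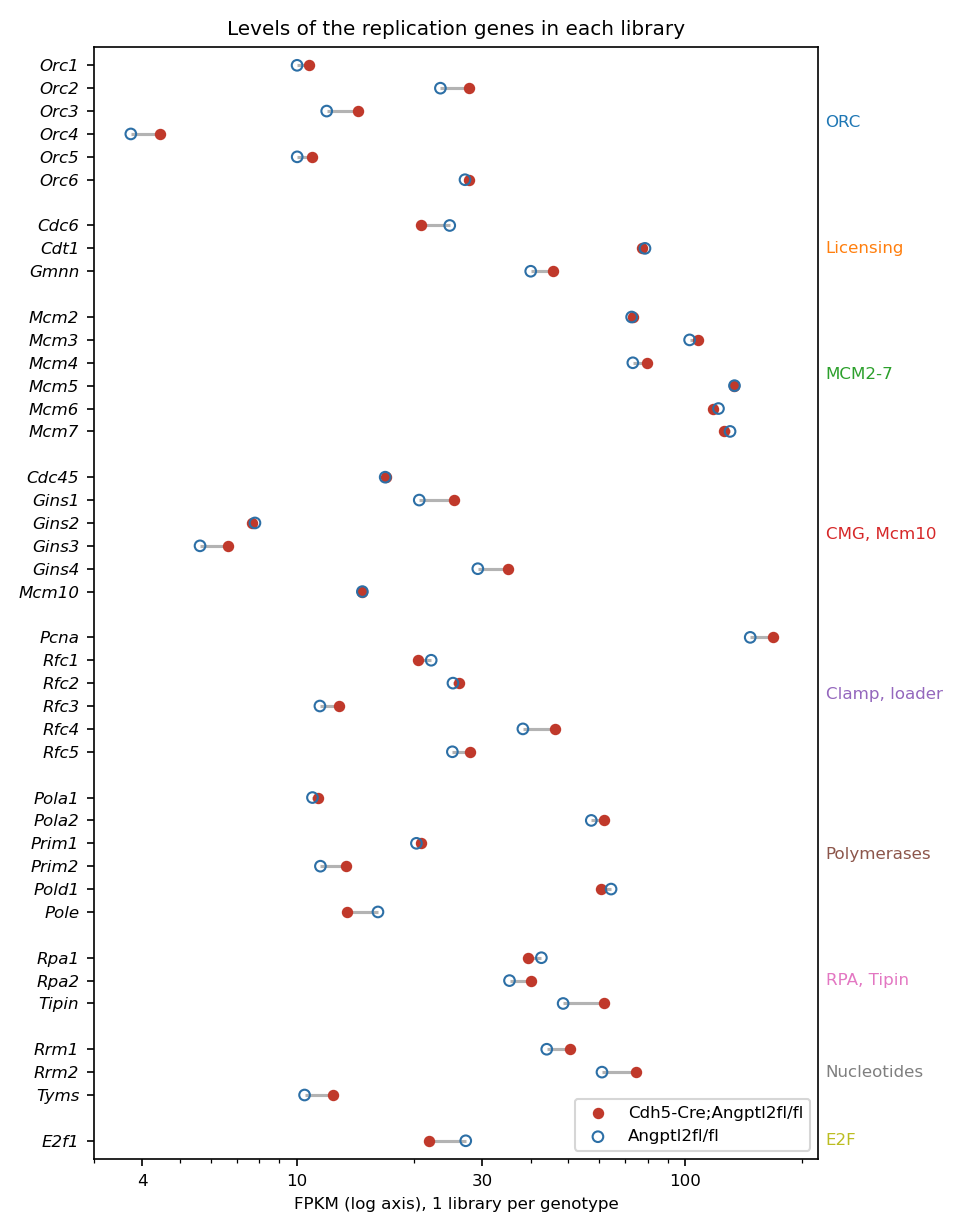
FPKM (log axis) of each of the 40 replication genes, by role, in the 1 Cdh5-Cre;Angptl2fl/fl library (filled) and the 1 Angptl2fl/fl library (open). The MCM2-7 genes sit between 73.3 and 133.5 FPKM in deletion cells and between 72.7 and 133.8 FPKM in control cells, and their symbols nearly coincide.

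No replication gene reached a 2-fold difference between the libraries. Ratios were taken as log2((FPKM + 1)/(FPKM + 1)), deletion over control. Of all 12325 genes averaging 1 FPKM or more, 2.47% were 2-fold or more higher in deletion cells and 3.38% were as much lower (5.86% either way). None of the 40 reached 1.5-fold either, a limit that 11.8% of all genes passed. At a limit of 25% (the larger value of FPKM + 1 at least 25% above the smaller), 1 of 40 was higher (Tipin) and 0 were lower, against 13.8% and 14.4% of all genes, or 28.2% either way. With each library's FPKM rescaled to a common total, Tipin no longer passed and Cdc6, Pole and E2f1 did, so that 0 of 40 were higher and 3 lower, against 10% and 28.3% of all genes. Of the 7346 protein-coding genes in the same range of mean FPKM as the 40, 16.5% passed the 25% limit in either direction. At 2-fold only 23 of these 7346 were higher and 36 lower, so 0 of 40 at that limit says little about the replication genes. The interquartile range of the 40 log2 ratios was 0.21, and that of these 7346 genes was 0.30.

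The median log2 ratio of the 40 was 0.099, with quartiles of -0.0075 and 0.20, and 29 of 40 lay above 0. Over all 12325 genes the median was -0.011, the quartiles were -0.20 and 0.18, and 48.4% lay above 0. The side of 0 depended on the scaling. On that common total, the log2 ratio of all genes shifted to a median of -0.15 and that of the 40 to -0.042, with 17 of 40 above 0, against 30.8% of all genes. The 40 lay 0.11 above the median of all genes on both scales, and 30 of the 40 were above that median on both. Rescaling shifts nearly all log2 ratios alike, so this likeness of the scales is no added support. After adjustment for length and GC, described further on, the 40 lay 0.064 above the median of genes with a coding transcript. Without mitochondrially encoded genes in the total, the medians were 0.034 for the 40 and -0.071 for all genes.

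Counting error limits what such ratios can show. From the fragments, an exact 95% interval was formed for the plain FPKM ratio of each gene. The interval covers counting error only, since 1 library per genotype gives no spread between mice. Copies of a read made in PCR are not separate molecules, and where they were counted the interval is too narrow. It left out equality for 27 of 39 genes, 19 higher and 8 lower in deletion cells, against 26.8% higher and 30% lower of 11714 genes with whole fragment numbers. The fragments of both libraries were then divided by 6, a number chosen after the data were seen. It is the most frequent fragment number of deletion cells, while that of control cells was 1. With that division the interval left out equality for 9 of 39. Higher were Orc2, Orc3, Pcna, Tipin, Rrm1 and Rrm2, and lower were Cdc6, Pole and E2f1, against 8.28% and 10% of all. On the common total the same divided intervals put 0 of 39 higher and 11 lower, against 3.39% and 21.2% of all. Without mitochondrially encoded genes they put 4 higher and 7 lower, against 5.32% and 14.8%. These other totals shift every plain log2 ratio by a fixed amount, -0.15 on the common total and -0.069 without mitochondrially encoded genes. The lower calls of Cdc6, Pole and E2f1 therefore had to hold on them, which lends those calls no support. No higher call held on the common total.

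**Figure D3:**
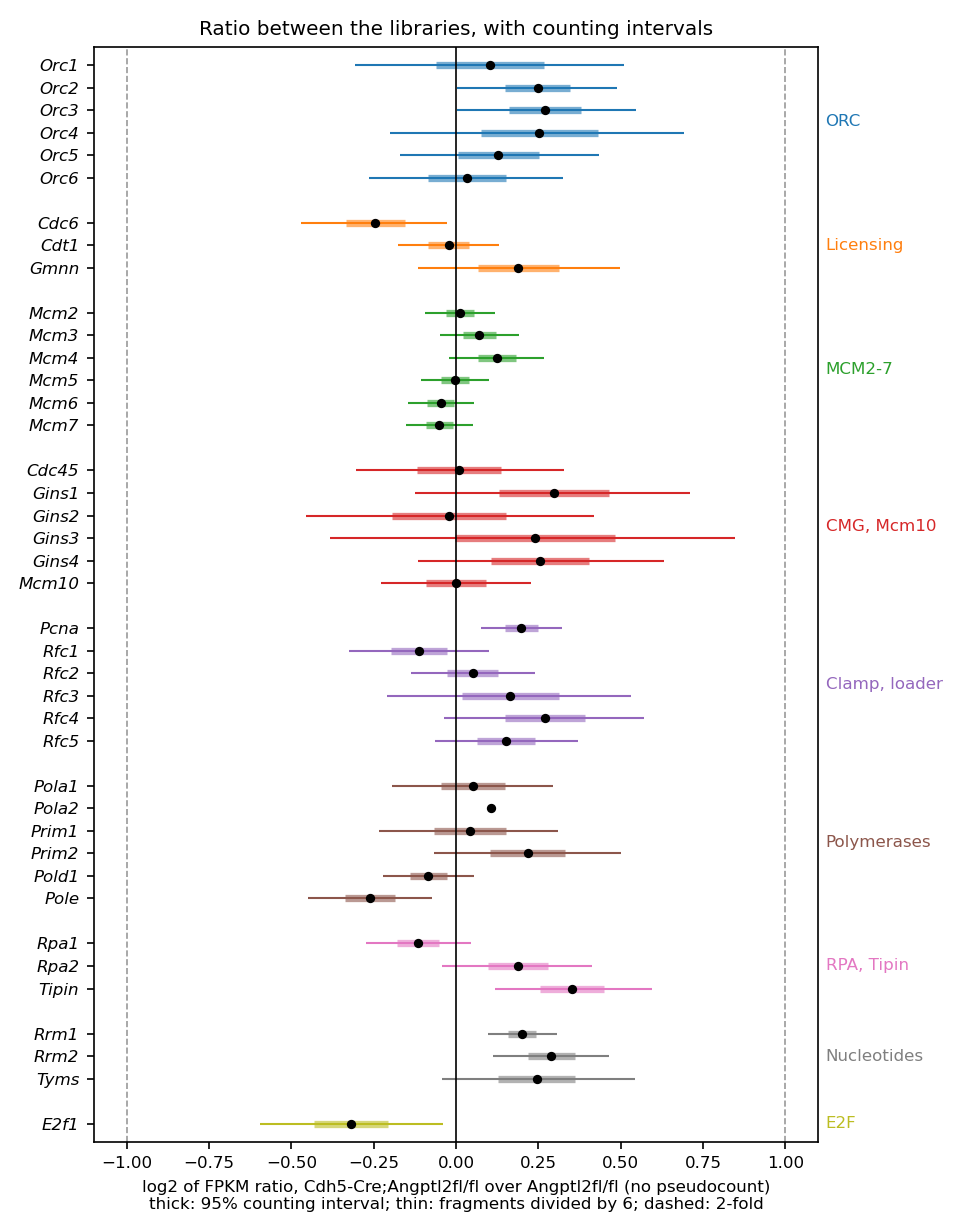
Log2 of the FPKM ratio (no pseudocount), Cdh5-Cre;Angptl2fl/fl over Angptl2fl/fl, for each replication gene by role. Thick bars are 95% counting intervals and thin bars the same with fragments divided by 6; Pola2 has no interval, and dashed lines mark 2-fold. All 40 points lie well inside the dashed lines, with E2f1 lowest and Tipin highest.

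The ORC genes were slightly higher in deletion cells on the FPKM scale, all 6 of 6, with a median log2 ratio of 0.16; on the common total 3 of 6 were higher and the median was 0.039. Their levels ranged from 4.45 to 27.8 FPKM in deletion cells and from 3.73 to 27.1 FPKM in control cells. Orc3, a core ORC subunit (chromosome 4, 34570796 to 34614944, minus strand, GRCm38), was at 14.4 FPKM in deletion cells and 11.9 FPKM in control cells. Its log2 ratio of 0.25 was the highest of the 6. Orc6, a subunit held loosely in the human complex, was at 27.7 and 27.1 FPKM in deletion and control cells, with the lowest ratio of the 6 at 0.033. Orc1, an ATPase subunit, was at 10.8 FPKM in deletion cells and 10.01 FPKM in control cells. Orc4, another ATPase subunit, had the lowest level of the group, at 4.45 FPKM in deletion cells and 3.73 FPKM in control cells. Orc5, also of the core ring, was at 10.9 FPKM in deletion cells and 10.01 FPKM in control cells. Orc2, a core subunit, was at 27.8 FPKM in deletion cells and 23.4 FPKM in control cells, the highest level of the group in deletion cells. Of its exons, 29.8% overlap Nif3l1 on the other strand, and whether the counting used strand is not stated.

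The loading factors did not share a direction. Cdc6, the ATPase that recruits MCM2-7 to ORC, was at 20.9 FPKM in deletion cells and 24.7 FPKM in control cells. Its log2 ratio of -0.24 had a counting interval, with fragments divided by 6, of -0.47 to -0.027. Cdt1, which carries MCM2-7 to the origin, was nearly level at 77.5 FPKM in deletion cells and 78.7 FPKM in control cells. Its inhibitor geminin (Gmnn) was at 45.6 FPKM in deletion cells and 39.98 FPKM in control cells, a log2 ratio of 0.19 whose divided interval held equality. The Cdt1 level was 1.70 times that of Gmnn in deletion cells and 1.97 times in control cells.

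The 6 genes of the MCM2-7 ring had the group median closest to 0 on the FPKM scale, 0.0036 with 3 of 6 above 0, but on the common total it was -0.14 with 0 of 6 above 0. Their summed FPKM was 638.1 in deletion cells and 634.5 in control cells. Mcm5 was at 133.5 FPKM in deletion cells and 133.8 FPKM in control cells, the highest level of the group. Mcm2 was at 73.3 and 72.7 FPKM in the same order, and Mcm10, which is no part of the ring but helps to activate it, at 14.7 FPKM in both. Mcm4 was the highest by ratio, at 79.8 FPKM in deletion cells and 73.3 FPKM in control cells, a log2 ratio of 0.12. Mcm7 was the lowest by ratio, at 125.9 FPKM in deletion cells and 130.4 FPKM in control cells, a log2 ratio of -0.050. On the FPKM scale the divided intervals of all 6 held equality, with outer bounds of -0.15 and 0.27. With that division, counting error leaves room for log2 differences of up to that size. The undivided intervals held equality only for Mcm2 and Mcm5, with Mcm3 and Mcm4 higher and Mcm6 and Mcm7 lower. On the common total the divided intervals of Mcm2, Mcm5, Mcm6 and Mcm7 lay below equality. The other ring subunits lay between Mcm7 and Mcm4 by ratio. Mcm3 was at 107.7 FPKM in deletion cells and 102.6 FPKM in control cells, and Mcm6 at 117.9 and 121.7 FPKM in the same order.

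The 6 ring subunits also had similar levels by FPKM. The highest was 1.82 times the lowest in deletion cells and 1.84 times in control cells, against 6.25 and 7.25 times among the 6 ORC genes. In the same order it was 5.25 and 5.19 times among the GINS genes and 3.59 and 3.33 times among Rfc1 to Rfc5. Set on the longest transcript, the MCM2-7 spread was 2.36 in deletion cells and 2.66 in control cells. That of Rfc1 to Rfc5 was then smaller, at 2.12 and 1.63. The mean MCM2-7 level was 6.64 times the mean ORC level in deletion cells and 7.36 times in control cells.

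The partners that turn the ring into the active helicase were lower in level than the ring. Cdc45 was at 17.0 FPKM in deletion cells and 16.9 FPKM in control cells, and the MCM2-7 mean was 6.27 times that in both. Among the GINS genes, Gins1 had the highest ratio, at 25.4 FPKM in deletion cells and 20.6 FPKM in control cells, a log2 ratio of 0.29. It rested on 648 and 544 fragments, and its divided interval of -0.12 to 0.71 held equality. Gins4 had the highest level, at 34.9 FPKM in deletion cells and 29.2 FPKM in control cells. Gins3 had the lowest level, at 6.64 FPKM in deletion cells and 5.63 FPKM in control cells. Gins2 was at 7.68 FPKM in deletion cells and 7.79 FPKM in control cells, with the lowest ratio at -0.019. Of its exons, 67.3% overlap Gse1 on the other strand, which was at 20.4 and 22.3 FPKM in the same order, so its own level is uncertain. Of Cdc45, the GINS genes and Mcm10, 5 of 6 lay above 0 with a median of 0.11, and on the common total 3 of 6 did with a median of -0.026.

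Pcna, the sliding clamp (chromosome 2, 132249162 to 132253314, minus strand), had the highest level of all 40 genes, at 168.4 FPKM in deletion cells and 146.9 FPKM in control cells. Its log2 ratio was 0.20, with a divided interval of 0.075 to 0.32, and 0.049 on the common total. A processed pseudogene, Pcna-ps2, matches it at 99.2% over 781 bases and was at 1.65 FPKM in deletion cells and 1.83 FPKM in control cells, so a small part of the fragments could be exchanged. The clamp was 6.31 times the mean of Rfc1 to Rfc5 in deletion cells and 6.01 times in control cells.

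Within the loader that opens the clamp, the subunits differed in sign. Rfc4, a small subunit, was at 46.0 FPKM in deletion cells and 38.2 FPKM in control cells, a log2 ratio of 0.26. Rfc1, the large subunit, was at 20.5 FPKM in deletion cells and 22.2 FPKM in control cells, a log2 ratio of -0.11. The divided intervals of all 5 loader genes held equality, while of the undivided ones only that of Rfc2 did. On the common total the divided interval of Rfc1 lay below equality. The other small subunits were higher on the FPKM scale by less than Rfc4: Rfc2 was at 26.1 FPKM in deletion cells and 25.2 FPKM in control cells. Rfc3 was at 12.8 FPKM in deletion cells and 11.5 FPKM in control cells. Rfc5 was at 27.9 FPKM in deletion cells and 25.1 FPKM in control cells. Clamp and loader together had 5 of 6 above 0 and a median of 0.15, and 4 of 6 and 0.0096 on the common total. Exons of Rfc2 (15.1%), Rfc4 (12.7%) and Rfc5 (10.7%) overlap coding genes on the other strand.

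The polymerases were split. Pole, the catalytic subunit of the leading-strand polymerase (chromosome 5, 110286306 to 110337474, plus strand), was at 13.5 FPKM in deletion cells and 16.2 FPKM in control cells. Its log2 ratio was -0.25, and the divided interval ran from -0.45 to -0.074. Pold1, the catalytic subunit of the lagging-strand polymerase, was at 60.8 FPKM in deletion cells and 64.4 FPKM in control cells, a log2 ratio of -0.083. After adjustment for transcript length and GC, described further on, the log2 ratio was -0.10 for Pole and 0.075 for Pold1. The primase and the polymerase that extends its primers stood on the other side of 0 on the FPKM scale, although all but Prim2 lay below 0 on the common total. Prim2, the large primase subunit, was at 13.4 FPKM in deletion cells and 11.5 FPKM in control cells, a log2 ratio of 0.20. Prim1, the catalytic primase subunit, was at 20.9 FPKM in deletion cells and 20.3 FPKM in control cells. Pola1, the catalytic subunit of polymerase alpha, had the lowest level, at 11.4 FPKM in deletion cells and 11.0 FPKM in control cells. Pola2, its accessory subunit, was at 61.6 FPKM in deletion cells and 57.3 FPKM in control cells, and was not a whole number of fragments. The group median was 0.043, and -0.099 on the common total.

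Tipin, which with Timeless protects paused forks, had the highest ratio of the 40 genes. It lies on chromosome 9 from 64281581 to 64305424 on the plus strand. Its level was 61.9 FPKM (1948 fragments) in deletion cells and 48.5 FPKM (1574 fragments) in control cells, a plain ratio of 1.28-fold. The log2 ratio was 0.35, the divided interval of the plain ratio ran from 0.12 to 0.60, and on the common total the log2 ratio was 0.20. Its partner Timeless was at 40.8 FPKM in deletion cells and 46.5 FPKM in control cells, which is the other direction.

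The single-strand binding protein RPA also showed both signs. Rpa1, the large subunit, was at 39.3 FPKM in deletion cells and 42.6 FPKM in control cells, a log2 ratio of -0.11. Rpa2, the middle subunit, was at 40.1 FPKM in deletion cells and 35.3 FPKM in control cells, a log2 ratio of 0.18. The divided intervals of both held equality, and the undivided ones did not. On the common total the divided interval of Rpa1 lay below equality. RPA and Tipin together had a median of 0.18, or 0.039 on the common total, with 2 of 3 above 0 on both scales.

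The genes of nucleotide supply were higher in deletion cells, 3 of 3 on the FPKM scale and on the common total, with medians of 0.22 and 0.093. Rrm2, the small subunit of ribonucleotide reductase that is made in S phase (chromosome 12, 24708241 to 24714146, plus strand), was at 74.6 FPKM in deletion cells and 61.0 FPKM in control cells. Its log2 ratio was 0.29, with a divided interval of 0.11 to 0.46. Rrm1, the large subunit, was at 50.5 FPKM in deletion cells and 44.0 FPKM in control cells, a log2 ratio of 0.20 with a divided interval of 0.096 to 0.31. Tyms, thymidylate synthase, was at 12.4 FPKM in deletion cells and 10.5 FPKM in control cells, and its divided interval held equality. Which reductase subunit is higher depends on the length used. By deposited FPKM, Rrm2 was 1.48 times Rrm1 in deletion cells and 1.39 times in control cells, and per longest transcript it was 0.677 and 0.636 times Rrm1 in the same order.

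E2f1, an activator of S-phase genes (chromosome 2, 154559407 to 154569892, minus strand), had the lowest ratio of the 40. It was at 21.8 FPKM (1159 fragments) in deletion cells and 27.2 FPKM (1491 fragments) in control cells. The log2 ratio was -0.31, or -0.46 on the common total, and the divided interval of the plain ratio ran from -0.60 to -0.039. The 12 genes with E2F letters in the promoter had a median log2 ratio of 0.022, with 6 above and 6 below 0. The 19 with a promoter but no such letters had a median of 0.12, with 16 above 0. The 9 with no promoter in the table had a median of 0.19, with 7 above 0. On the common total 3 of the 12, 9 of the 19 and 5 of the 9 lay above 0. After adjustment for length and GC, described further on, 4 of the 12 moved above 0. They were Cdt1 (0.049), Mcm5 (0.049), Mcm7 (0.0010) and Pold1 (0.075), while Cdc6 (-0.17) and Mcm6 (-0.012) stayed below. Of the 19, Orc6 (-0.11), Cdc45 (-0.035) and Prim1 (-0.10) moved below 0, so the split changed with that adjustment. A link of the split to E2f1 was not tested.

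Ratios of the replication genes followed the length and GC of their transcripts, as those of other genes did. The Spearman correlation of the log2 ratio with transcript length was -0.53 over the 40 genes and -0.33 over 7342 protein-coding genes in the same range of levels. With transcript GC it was -0.54 over the 40 and -0.23 over the 7342. These are correlations across genes of the same pair of libraries, and genes are not replicates. The 20 genes with transcripts of at most 2879 bases had a median log2 ratio of 0.18 with 18 above 0, and the 20 longer ones had a median of 0.0056 with 11 above 0. In 5 equal bins of the coding genes by length, the bin of the shortest transcripts had a median of 0.11 and that of the longest -0.12. After a linear adjustment for length and GC, added after the data were seen, the 40 had a median of 0.073 with 31 above 0, and 10227 protein-coding genes had 0.0087. The adjusted medians were 0.088 for ORC and 0.071 for the clamp and its loader. The adjusted log2 ratios of single genes were 0.18 for Tipin, 0.15 for Orc3, 0.12 for Gins1, 0.082 for Rfc4, 0.059 for Pcna and -0.21 for E2f1.

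**Figure D4:**
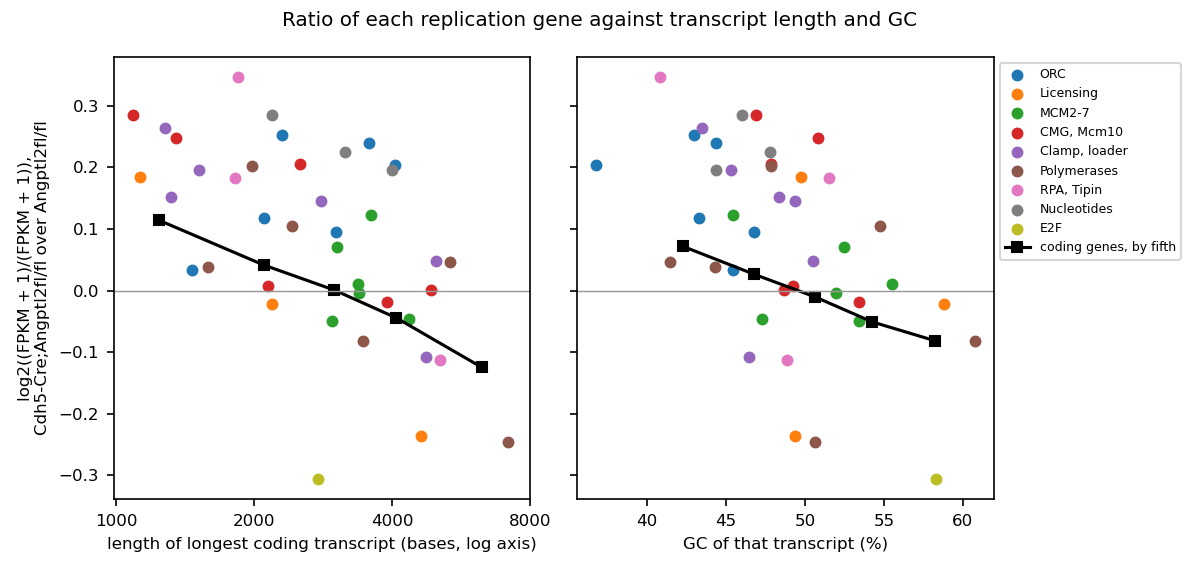
Log2 ratio of each replication gene (coloured by role), Cdh5-Cre;Angptl2fl/fl over Angptl2fl/fl, against the length (left, bases, log axis) and GC (right, %) of its longest coding transcript. Black squares are medians of protein-coding genes of the same level range in 5 bins, running down from 0.11 to -0.12 with length and from 0.072 to -0.081 with GC.

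Genes of some other cell types differed between the libraries by more than any replication gene did. Megakaryocyte and platelet genes summed to 138.3 FPKM in deletion cells and 48.5 FPKM in control cells, 4 of 4 higher. Neutrophil granule genes summed to 2980 and 1902 FPKM, with 4 of 8 higher and 4 of 8 lower, and erythroid genes to 2117 and 1832 FPKM, with 2 of 7 higher (1 of 7 on the common total). Monocyte and macrophage genes summed to 100.2 FPKM in deletion cells and 272.6 FPKM in control cells, 5 of 5 lower. B-lineage genes summed to 186.3 FPKM in deletion cells and 176.1 FPKM in control cells. T-lineage genes summed to 3.78 and 1.87 FPKM, with Cd3e and Cd3g at 0 in deletion cells, and endothelial genes to 5.75 and 6.46 FPKM, with Cdh5 at 0 in deletion cells and at 0.027 FPKM in control cells. The cell cycle genes Mki67, Top2a, Ccnb1 and Cdk1 summed to 171.6 FPKM in deletion cells and 179.9 FPKM in control cells, with 2 of 4 higher (1 of 4 on the common total). Mki67, a marker of cycling cells, was at 75.1 FPKM in deletion cells and 86.3 FPKM in control cells. Cdk1, the kinase of mitotic entry, was at 19.6 FPKM in deletion cells and 16.0 FPKM in control cells, Ccnb1, its cyclin, at 28.6 and 28.2 FPKM, and Top2a at 48.4 and 49.5 FPKM. The part of cell composition, of the mitochondrial share and of fragment duplication in the ratios of the replication genes was not tested.

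The wider replication pathway was described with 81 further genes in 10 lists, all of them averaging 1 FPKM or more. None of the 81 reached 2-fold or 1.5-fold on the scale of FPKM + 1. The median log2 ratio was 0.010, with 41 above and 40 below 0, and -0.14 with 18 above 0 on the common total. At the 25% limit 2 were higher and 4 lower, against 13.8% and 14.4% of all genes, and on the common total 1 was higher and 18 lower, against 10% and 28.3%. The higher ones were Rpa3, the small RPA subunit, at 31.3 FPKM in deletion cells and 22.3 FPKM in control cells, and Asf1b, a histone chaperone, at 22.6 and 16.8 FPKM in the same order. The lower ones were E2f2, an activator E2F, at 9.44 FPKM in deletion cells and 13.2 FPKM in control cells; Ccnd1, a G1 cyclin, at 0.98 and 1.76 FPKM, where the plain FPKM is 1.79 times higher in control cells; and Dscc1 and Chtf18 of the alternative clamp loader, at 3.55 and 12.4 FPKM in deletion cells and 5.08 and 16.0 FPKM in control cells. With fragments divided by 6, intervals left out equality for 12 of 77 genes, 6 higher and 6 lower, against 8.28% and 10% of all genes.

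Lists differed in their medians, which are not adjusted for length and GC. With that adjustment the log2 ratio went from 0.47 to 0.16 for Rpa3 and from -0.19 to -0.058 for Timeless. It went from -0.42 to -0.53 for Dscc1 and from 0.092 to 0.16 for Chtf8. Other nucleotide supply genes had a median of 0.18 with 5 of 6 above 0 (0.087 and 4 of 6 on the common total), from Samhd1, which breaks down deoxynucleotides, at 11.2 FPKM in deletion cells and 11.9 FPKM in control cells, to Dut, which removes dUTP, at 116.2 and 94.0 FPKM. Other polymerase and RPA subunits had a median of 0.13 with 6 of 7 above 0 (-0.015 and 3 of 7 on the common total), from Pold4, a small subunit of polymerase delta, at 14.7 FPKM in deletion cells and 17.1 FPKM in control cells to Rpa3. Fork protection and alternative loaders had a median of -0.17 with 7 of 9 below 0 (9 of 9 on the common total), from Dscc1 to Chtf8 at 76.8 and 72.0 FPKM. E2F and RB family genes had a median of -0.089 with 8 of 12 below 0 on both scales, from E2f2 to E2f6 at 15.9 FPKM in deletion cells and 13.3 FPKM in control cells. The pair of MCM paralogs had a median of -0.16, with Mcm8 at 7.19 FPKM in deletion cells and 8.64 FPKM in control cells, and Mcm9 at 3.19 and 3.46 FPKM.

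The other 5 lists had medians between -0.018 and 0.067. Firing factors and kinases had a median of 0.033, from the helicase gene Recql4 at 19.8 FPKM in deletion cells and 22.1 FPKM in control cells to Ticrr at 9.23 and 8.42 FPKM. Okazaki fragment maturation had a median of 0.067, from the flap nuclease gene Fen1 at 5.93 FPKM in deletion cells and 7.15 FPKM in control cells to Dna2 at 18.1 and 15.8 FPKM. Chromatin assembly genes had a median of 0.053, from Uhrf1, which helps to copy DNA methylation, at 62.0 FPKM in deletion cells and 72.9 FPKM in control cells to Asf1b. G1/S cyclins and regulators had a median of -0.011, from Ccnd1 to Fbxo5, an inhibitor of the anaphase-promoting complex, at 19.7 FPKM in deletion cells and 17.0 FPKM in control cells. Replication checkpoint genes had a median of -0.018, from the kinase gene Atr at 3.09 FPKM in deletion cells and 3.74 FPKM in control cells to Etaa1, an activator of ATR, at 8.27 and 6.97 FPKM. On the common total the medians of these 5 lists were between -0.16 and -0.073, all below 0.

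**Figure D5:**
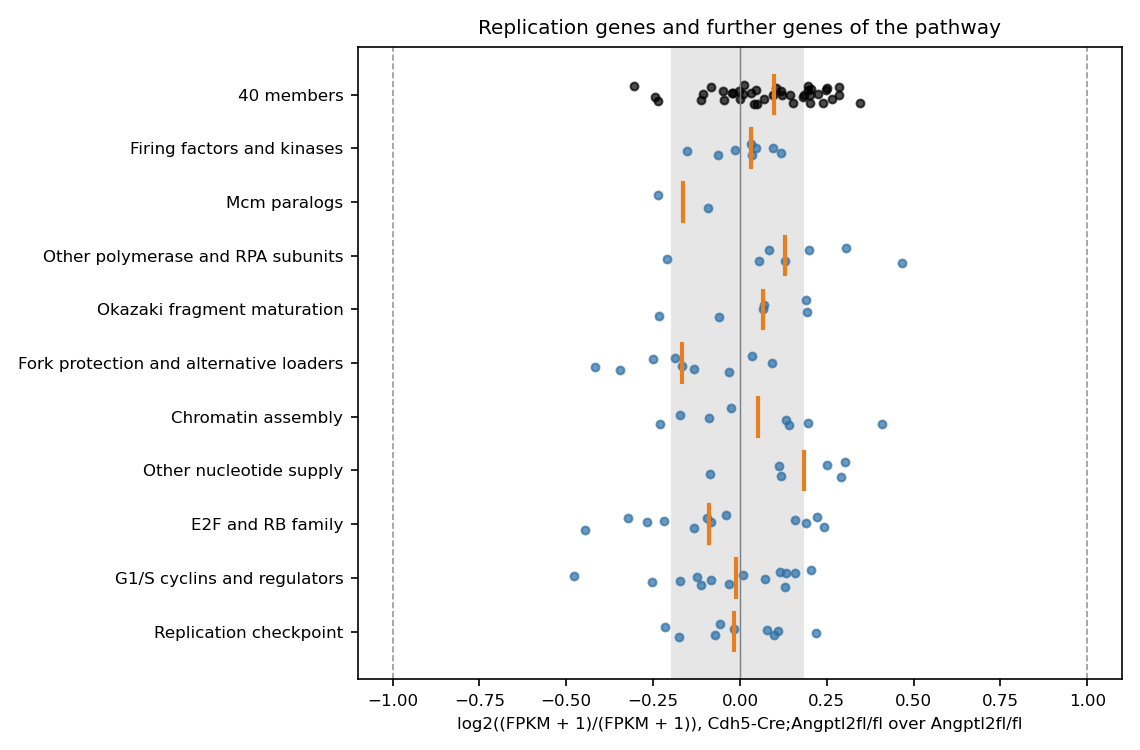
Log2((FPKM + 1)/(FPKM + 1)), Cdh5-Cre;Angptl2fl/fl over Angptl2fl/fl, of the 40 replication genes (black) and of 81 further genes in 10 lists (blue), with the median of each row in orange. The grey band spans the quartiles of all 12325 genes and dashed lines mark 2-fold; all points lie within -0.48 and 0.47.

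The replication genes lie on 15 chromosomes. Of the 40, 8 lie on chromosome 5 (20%, against 6.33% of expressed protein-coding genes) and 6 on chromosome 8 (15%, against 5.56%). Chromosome 5 holds Rfc1, Rfc2, Rfc3 and Rfc5 of the clamp loader, and chromosome 8 holds Gins2, Gins3 and Gins4. A coding gene starts on the other strand within 1000 bases of 6 of the 40 starts (15%), against 11.5% of the expressed protein-coding genes. Orc3 and Rars2, a mitochondrial tRNA ligase gene, start 13 bases apart, and Rars2 was at 16.8 FPKM in deletion cells and 13.4 FPKM in control cells, which is the direction of Orc3. Mcm4 and Prkdc, a DNA repair kinase gene, start 466 bases apart, and Prkdc was at 3.78 FPKM in deletion cells and 5.55 FPKM in control cells, which is the other direction from Mcm4. Pole and Pxmp2 start 120 bases apart, and Pxmp2 was at 6.83 FPKM in deletion cells and 8.68 FPKM in control cells, which is the direction of Pole.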

How the data were processed

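RNA of sorted HSCs was sequenced from both ends (150 bp reads, Illumina HiSeq X), per the labels' protocols. The authors deposited FPKM for each Ensembl gene, 1 library per genotype. The submitters' processing notes name Bowtie 0.12.2 and mm8; the counting program, its annotation and its strand setting are not stated there or in the labels. Gene lengths and positions are those of GENCODE M21 (GRCm38), not of mm8, and an exon length was found for 54494 of 54531 genes. The columns were matched to samples by their descriptions.

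Log2 ratios were computed with a pseudocount of 1 FPKM among genes averaging 1 FPKM or more, which understates differences of low genes. With 1 library per genotype no test was possible. Depth and fragment numbers were recovered from whole multiples of FPKM times exon length, within 0.02. Intervals are exact Clopper-Pearson at 95%, on the ratio without pseudocount, and cover counting error only. FPKM depends on the library total and on the gene model, so abundant genes move all others. Of the 40 genes, 8 have a processed pseudogene copy of at least 90% identity over at least 400 bases (blastn 2.17.0), and fragments could be exchanged with it. Promoters are those of RefSeq, on GRCm38.p6.

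Genes described in full were those with the highest or lowest ratio or level in each role and any past a 25% difference; in the further lists, the highest and lowest ratio and any past 1.5-fold. The genes past 25% in those lists, Timeless, Mki67, and the neighbours and overlapping genes were named after their values were seen. The genes and lists were chosen with earlier results of these data known. Python 3.11.15, numpy 2.4.6, pandas 2.3.3 and scipy 1.17.1 were used, and the computation was tested on simulated data. The alternatives were pseudocounts of 0.1 and 5 FPKM, minimum levels of none or 5 FPKM, a common total of 1000000, centred ratios, trimmed-mean scaling, scaling without mitochondrially encoded genes, and limits of 1.5-fold and 25%.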

Additional observations from a re-analysis of the deposited data

How the results depend on the processing

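Ratios of the replication genes depended on the scaling of the libraries. After rescaling each library to a common total, the median log2 ratio of the 40 was -0.042 (against 0.099), and the medians were 0.039 for ORC, -0.17 for licensing, -0.14 for MCM2-7, -0.026 for the CMG partners with Mcm10, 0.0096 for the clamp and its loader, -0.099 for the polymerases, 0.039 for RPA and Tipin, 0.093 for nucleotide supply and -0.46 for E2f1. Of the 39 genes with a counting interval, 32 moved there by more than the undivided interval. Rescaling shifts nearly all log2 ratios alike, so this number follows from the interval widths, which depend on the fragments. Without mitochondrially encoded genes the median was -0.065 for MCM2-7 and -0.022 for the polymerases. After adjustment for length and GC, added after the data were seen, it was 0.049 for licensing, 0.077 for MCM2-7, 0.088 for ORC (against 0.16) and 0.071 for the clamp and its loader (against 0.15). The cause of these shifts was not tested. Other pseudocounts, minimum levels, centring and trimmed-mean scaling moved none of these medians by more than the counting interval and changed none of their signs. At a limit of 25%, 1 of the 40 and 6 of the 81 further genes passed (28.2% of all genes), against 0 and 0 at 2-fold and at 1.5-fold. At 25% on the common total, added after the data were seen, 3 of the 40 passed, all lower, and 19 of the 81, 1 higher and 18 lower. Of all genes, 10% were higher and 28.3% lower there.

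No paired analysis was possible because each genotype has 1 library, and leaving out either ends the comparison. Without replicates, differences between mice cannot be told apart from differences between genotypes. Depth limits genes with few fragments most: the divided interval of Gins3, with the fewest at 303 and 265, ran from -0.38 to 0.85.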
